A study of Mus musculus with 12 samples.

Results

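Clec14a, Cd93, Mmrn2, Eltd1, Egfl7 and Robo4 code for proteins of the endothelial surface and its surrounding matrix. They were taken by symbol from a table of 24015 gene symbols measured in mouse brain endothelial cells, and all 6 were found. All 6 passed the filter of a mean of at least 10 normalized counts, which left 12777 genes to test. The samples came from wild-type C57BL/6 mice of 19 months (old, 6 samples) and 3 months (young, 6 samples), with no other treatment or allele in the labels. Each sample holds endothelial cells sorted by flow cytometry from the cortex and hippocampus of 2 pooled mice. Whether every pool held different animals is not in the labels, so the p-values speak only for the spread among these samples, which may be partly technical.

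Clec14a and Cd93 are single-pass membrane proteins of the group 14 C-type lectins, the family that also holds thrombomodulin (Thbd) and endosialin (Cd248). Both bind multimerin 2, the product of Mmrn2, a glycoprotein that endothelial cells secrete into their matrix. Eltd1, now named Adgrl4, is an adhesion G protein-coupled receptor of endothelial cells, and Robo4 is an endothelial member of the roundabout receptors that stabilises vessels. Egfl7 is a secreted protein bound to the matrix, known to act on Notch signalling, and its gene hosts the endothelial microRNA miR-126. Mmrn2 and Egfl7 are thus matrix rather than membrane proteins.

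The mature miR-126a-3p is shown because it lies within Egfl7, with its seed (bases 2 to 8) in capitals. It is the RefSeq sequence on GRCm38.p6, chr2:26591402-26591423, plus strand.
mmu-miR-126a-3p: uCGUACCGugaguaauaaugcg
Promoters are shown of Clec14a, the member that passed the test, and of Eltd1 and Robo4, the 2 members with the most alike profiles. Each runs from 250 bases before to 50 bases after the gene's start in RefSeq on GRCm38.p6. They lie at chr12:58269209-58269508 (minus strand), chr3:151437632-151437931 (plus strand) and chr9:37401722-37402021 (plus strand). Capitals mark GGAA, the core bound by ETS factors, a family that includes endothelial regulators, or TTCC, the same core on the other strand.
Clec14a: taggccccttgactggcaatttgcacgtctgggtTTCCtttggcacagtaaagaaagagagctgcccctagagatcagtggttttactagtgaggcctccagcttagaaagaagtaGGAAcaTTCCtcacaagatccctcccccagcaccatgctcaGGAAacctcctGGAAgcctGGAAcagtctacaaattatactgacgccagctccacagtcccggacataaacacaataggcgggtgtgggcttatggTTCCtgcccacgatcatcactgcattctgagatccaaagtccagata
Eltd1: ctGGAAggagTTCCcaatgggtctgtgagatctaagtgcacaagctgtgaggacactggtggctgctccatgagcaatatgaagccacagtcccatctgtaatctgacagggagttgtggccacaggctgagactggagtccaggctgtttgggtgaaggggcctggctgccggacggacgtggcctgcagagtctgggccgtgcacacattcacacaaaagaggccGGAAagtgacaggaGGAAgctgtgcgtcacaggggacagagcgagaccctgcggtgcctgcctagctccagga
Robo4: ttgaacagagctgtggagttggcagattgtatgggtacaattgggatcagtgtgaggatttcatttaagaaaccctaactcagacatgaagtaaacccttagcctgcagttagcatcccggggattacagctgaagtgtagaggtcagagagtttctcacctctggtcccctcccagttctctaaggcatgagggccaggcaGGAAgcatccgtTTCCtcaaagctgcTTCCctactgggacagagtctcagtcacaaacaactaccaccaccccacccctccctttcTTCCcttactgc
The core occurred 7 times in the Clec14a window and 4 times each in those of Eltd1 and Robo4. It is a short motif, present in 96.0% of 32851 RefSeq promoters of the same 300 bases, with a median of 3. A match is a description of letters and not of binding.

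The libraries held 25809499 to 40393814 reads in genes. Pan-endothelial markers summed to between 1415400 and 1815600 normalized counts per sample, against at most 2401 for 15 microglia and macrophage markers. Erythrocyte markers summed to 100 to 9660 in old and 1738 to 8004 in young samples, with 6 of 9 at 0 throughout. Choroid and ependymal markers summed to 0 to 3880 in old and 20.1 to 1209 in young samples. Of 14 blood leukocyte markers 3, the T cell genes Cd3e, Cd3d and Cd8a, were at 0 throughout. The 14, of which 11 had a mean under 10, summed to 8.07 to 308 in old and 32.3 to 168 in young samples. Their score, the mean log2 value, was 0.74 lower in old samples (exact permutation p = 0.0476, adjusted p = 0.19 over 12 marker lists). The astrocyte score, the mean log2 value of 14 markers, was 1.67 higher in old samples (exact permutation p = 0.0281, adjusted p = 0.19 over 12 marker lists). Summed astrocyte markers ran from 26644 to 78199 in old and from 14122 to 57384 in young samples, none at 0. The mural score, for pericytes and smooth muscle, was lower in old samples by 1.47 (sums of 1332 to 12626 against 3118 to 19532; exact permutation p = 0.0325, adjusted p = 0.19). Among markers of other cells, Clu (log2 fold 1.33) and Aldoc (2.22) of the astrocyte list, Stmn2 (1.28) of the neuron list and Mgp (1.23) of the fibroblast list rose. Myh11 (-2.10) and Acta2 (-1.63) of the mural list and Ogn (-4.10) of the fibroblast list fell. Aldoc did not pass in edgeR (adjusted p = 0.222), in DESeq2 (adjusted p = 0.191) or in 17 of 29 alternatives in all, 10 of them with 1 sample left out. Myh11 and Acta2 each lost their call in 12 of 29, 6 of them with 1 sample left out. Clu and Mgp passed in 28 of 29, Stmn2 in 29 of 29 and Ogn in 26 of 28. Summed neuron markers, mostly Stmn2, ran from 6022 to 12174 in old and from 2968 to 3565 in young samples without overlap, with 0 of the 12 at 0 in all samples, while the neuron score differed by 0.22 (exact permutation p = 0.662). The part of these cells in the results below was not tested, apart from the astrocyte and mural covariates. In old 7, old 9 and young 9 values fell with transcript GC content, with log2 slopes of -0.0756, -0.167 and -0.169 per 10 percentage points. The slopes of old 1 (0.129) and young 1 (0.117) were larger in size than that of old 7 and of the opposite sign, and the other 7 samples lay between -0.0301 and 0.0639. The term GC trend below refers to old 7, old 9 and young 9 alone. Results are given with and without these 3 samples. In bulk RNA of sorted cells, fewer cells of a type and less RNA per cell cannot be told apart.

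Per kilobase of annotated exon, Eltd1 had the highest level of the 6, 15088 ± 2781 normalized counts per kilobase (SD, n = 12), 55th of 12688 genes with a length. Mmrn2 followed with 6348 ± 857, then Robo4 (3846 ± 722), Egfl7 (3481 ± 433), Cd93 (2857 ± 847) and Clec14a (1885 ± 432). Robo4 and Egfl7 differed by less than the SD of either, and Egfl7 and Cd93 by less than the SD of Cd93. With the length of the principal transcript, Egfl7 reached 8962 and Robo4 6322, so the middle of the order depends on the transcripts assumed, while Eltd1 stayed first and Clec14a last.

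Of the 6 members 1 rose with age and 0 fell past the threshold (limma on log2 values, Benjamini-Hochberg adjusted p under 0.05 over all 12777 genes). In edgeR only Clec14a passed among the 6, and in DESeq2 Clec14a and Mmrn2. Among all genes 3.73% rose and 3.21% fell. Before adjustment 5 of the 6, all but Cd93, had a p under 0.05, as did 23.8% of all genes. The ages overlapped for all 6, and did not overlap for 4.29% of all genes. Of the members, 3 had a mean log2 fold above 0 (Clec14a, Mmrn2 and Egfl7) and 3 below 0 (Cd93, Eltd1 and Robo4), where the median of all genes was -0.01.

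**Figure D1:**
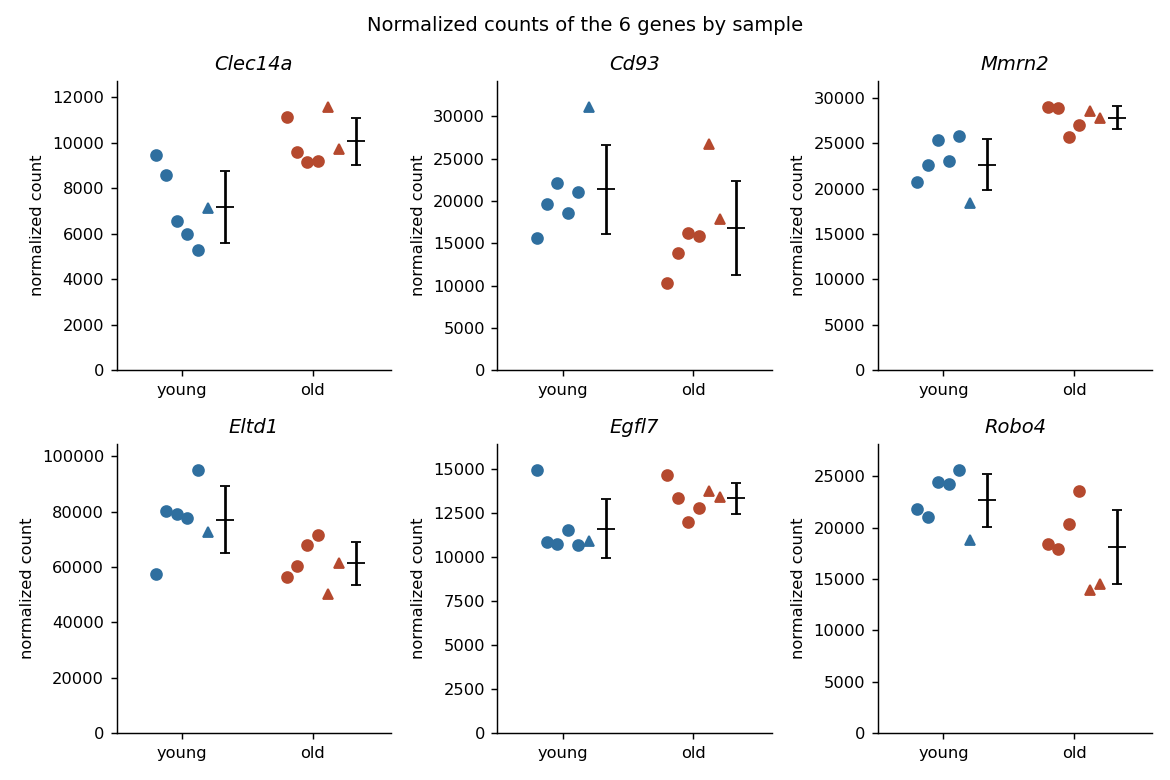
Normalized counts (vertical axis from 0) of the 6 genes in 6 young and 6 old samples, with mean and SD as black bars and triangles for old 7, old 9 and young 9. Clec14a lay at 9161 or more in old samples and at 9463 or less in young ones, and the ages overlapped for every gene.

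Clec14a, the lectin CLEC14A of vessel walls, was the member that rose. Its normalized count ran from 9161 to 11555 in old samples (median 9655) and from 5295 to 9463 in young samples (median 6839). All 6 old samples lay above the young median and 4 above the highest young sample, young 1. The means were 10059 ± 1024 and 7170 ± 1585 (SD, n = 6 each). The fold was 1.43 (95% confidence interval 1.17 to 1.73, log2 fold 0.51), with a limma adjusted p of 0.0287 and an exact permutation p of 0.00649. On the recovered reads edgeR gave an adjusted p of 0.0430 and DESeq2 of 0.00949. The call was lost in 6 of 12 limma fits with 1 sample left out. These left out old 1, old 2, old 7, young 3, young 4 or young 5 (adjusted p from 0.0503 to 0.0768). Over the 12 fits the log2 fold ran from 0.43 to 0.60. Without the 3 samples with a GC trend the log2 fold was 0.47 (adjusted p = 0.089). With the astrocyte score in the model it was 0.45 (adjusted p = 0.29) and with the mural score 0.52 (adjusted p = 0.15). The part of those cells in the result was not tested.

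Cd93, the receptor CD93 and the other lectin that binds multimerin 2, ran from 10322 to 26713 in old samples (median 16026) and from 15588 to 31055 in young samples (median 20346). Old 7 was the highest old sample and young 9 the highest young one, and both had the GC trend. The means were 16803 ± 5505 and 21349 ± 5265, with a log2 fold of -0.37 (95% confidence interval -0.79 to 0.05), a limma adjusted p of 0.264 and an exact permutation p of 0.143. With a term for the 3 samples with a GC trend the log2 fold was -0.48 and passed (adjusted p = 0.0346), and without those samples it was also -0.48 and did not (adjusted p = 0.0618). Cd93 is also known from myeloid cells, whose marker score differed by -0.20 between the ages (exact permutation p = 0.736), or by 0.07 at a pseudocount of 8. Their part in the Cd93 values was not tested.

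Mmrn2, the ligand, ran from 25717 to 28952 in old samples (median 28138) and from 18394 to 25824 in young samples (median 22806). Of the 6 old samples 5, all but old 3, lay above the highest young one. The means were 27813 ± 1275 and 22641 ± 2796, a fold of 1.24 (1.07 to 1.42; log2 fold 0.31, limma adjusted p = 0.0672; exact permutation p = 0.00433). It did not pass in limma or edgeR (adjusted p = 0.0640) and passed in DESeq2 (adjusted p = 0.0189). Without the 3 samples with a GC trend the log2 fold was 0.24 (adjusted p = 0.134). Its spread was the smallest of the 6 in old samples, a coefficient of variation of 4.58% against 12.3% in young.

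Eltd1, the adhesion receptor, ran from 50282 to 71605 in old samples (median 60778) and from 57509 to 95073 in young samples (median 78400). All 6 old samples lay below the young median, and young 1 lay among the old samples. The means were 61281 ± 7738 and 77077 ± 12164, with a log2 fold of -0.32 (-0.60 to -0.05), a limma adjusted p of 0.136 and an exact permutation p of 0.0238. It was -0.27 (adjusted p = 0.27) without the samples with a GC trend.

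Egfl7 ran from 12012 to 14641 in old samples (median 13356) and from 10677 to 14937 in young samples (median 10889). Young 1 was the highest of all 12, while the other 5 young samples lay below every old one. The means were 13322 ± 886 and 11609 ± 1659, with a log2 fold of 0.21 (0.00 to 0.41), a limma adjusted p of 0.208 and an exact permutation p of 0.0476. Leaving out the GC trend samples gave 0.18 (adjusted p = 0.386). In GENCODE M21 its exons share bases with Agpat2, Gm20532, Mir126a and Mir126b, and the library kit does not mark strand, so reads in those bases cannot be assigned. The row named Mir126 held 48 reads over the old samples and 45 over the young (7.68 ± 4.88 and 7.67 ± 6.00 normalized counts). It was below the filter and was not tested, and these libraries do not measure mature microRNA.

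Robo4 ran from 13955 to 23619 in old samples (median 18172) and from 18761 to 25616 in young samples (median 23037). Of the old samples 4 lay below the lowest young one, and old 4 lay above the young median. The means were 18120 ± 3631 and 22668 ± 2577, with a log2 fold of -0.34 (-0.62 to -0.06), a limma adjusted p of 0.127 and an exact permutation p of 0.0346. It passed without old 4 (log2 fold -0.42, adjusted p = 0.0489), and without the 3 samples with a GC trend it was -0.23 (adjusted p = 0.204).

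Ratios between members within a sample do not depend on how samples are scaled. Of the 15 pairs, 9 changed with age (exact permutation test over 924 labellings, Benjamini-Hochberg adjusted over 15 pairs). Of these calls 7, all but those of Mmrn2 against Robo4 and against Eltd1, were lost on leaving out any 1 of old 1, old 2, old 9, young 3, young 4, young 5 or young 9. The ratio of Mmrn2 to Robo4 ran from 0.949 to 1.07 in young samples and from 1.14 to 2.05 in old ones, and that of Mmrn2 to Eltd1 from 0.253 to 0.360 and from 0.377 to 0.568. Neither overlapped between the ages, with differences of 0.64 and 0.63 on the log2 scale (exact permutation p = 0.00216 each, the smallest these labellings can give, adjusted p = 0.0162). The pairs share genes, so the 9 calls are not separate results. The share of called or non-overlapping pairs among pairs of other genes was not computed, so the 9 calls have no background beside them.

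The ratio of the 2 lectins, Clec14a to Cd93, ran from 0.230 to 0.607 in young samples and from 0.433 to 1.08 in old ones, a difference of 0.88 on the log2 scale (exact permutation p = 0.0195, adjusted p = 0.0365). Old 1, with the lowest Cd93, had the highest ratio. Clec14a also rose relative to Robo4 (0.85), Eltd1 (0.84) and Egfl7 (0.30), each with adjusted p = 0.0325, and Mmrn2 relative to Cd93 by 0.68 (adjusted p = 0.0325). Clec14a and Mmrn2 differed by 0.21 (adjusted p = 0.393) and Eltd1 and Robo4 by 0.01 (adjusted p = 0.922). When old 7, old 9 and young 9 were left out 0 of the 9 pairs passed (exact permutation, adjusted p from 0.0595 to 0.149), in a design of 126 labellings. Fewer labellings raise the smallest p this test can give, so a lost call need not by itself mean a smaller difference. The ratios of Mmrn2 to Robo4 and to Eltd1 cannot overlap in such a subset, since they did not overlap over all samples. Without old 7, old 9 and young 9 the differences for Mmrn2 against Robo4 and Eltd1 were 0.47 and 0.51.

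**Figure D2:**
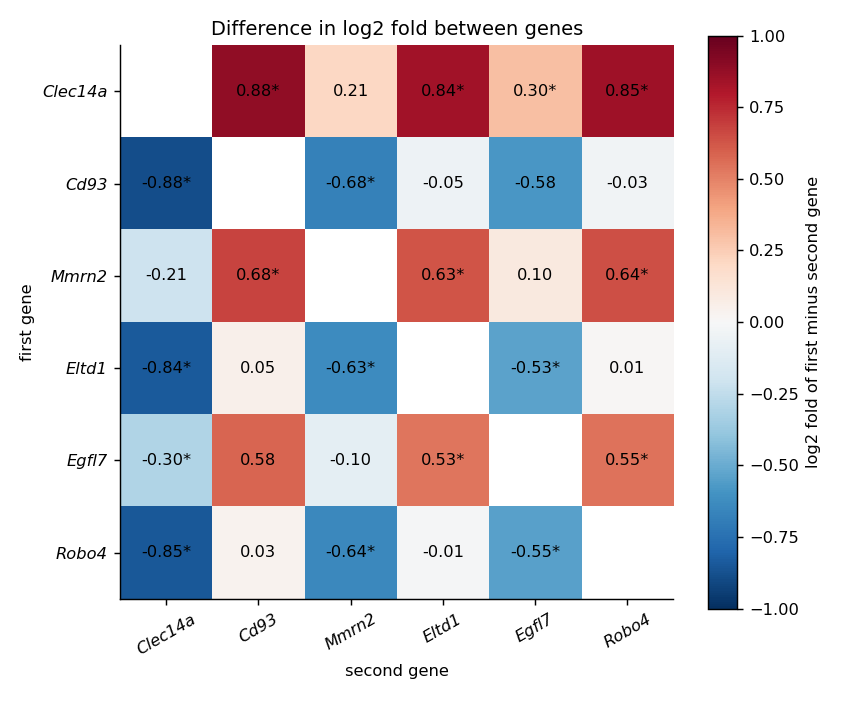
Difference in log2 fold of old over young between each gene of the rows and each gene of the columns, red where the row gene has the higher fold, with stars for an adjusted p under 0.05 over 15 pairs. Clec14a and Mmrn2 stand above Cd93, Eltd1 and Robo4, with differences of 0.63 to 0.88.

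**Figure D3:**
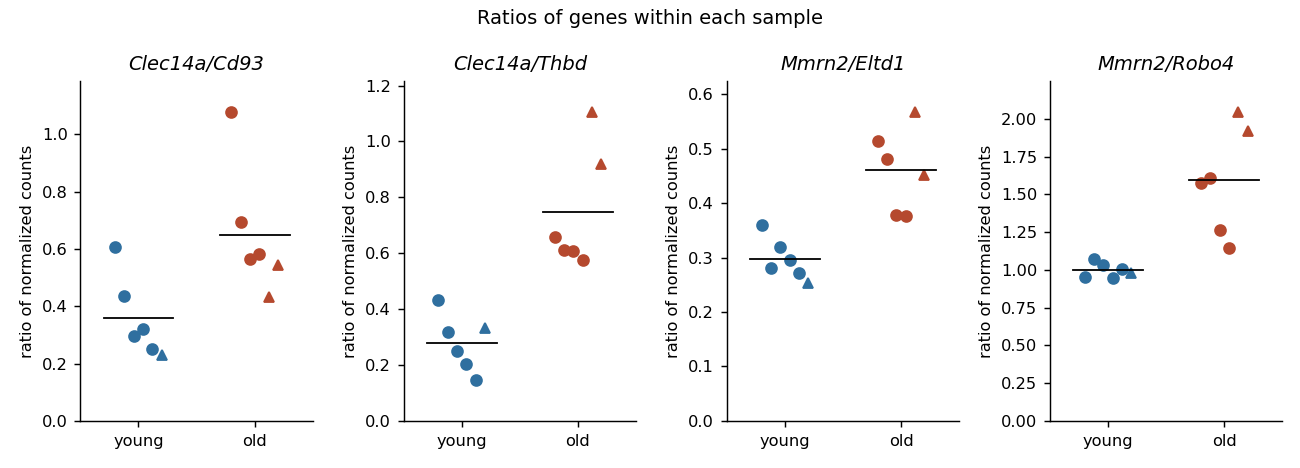
Ratio of normalized counts of 2 genes in each young and old sample, with group means as lines and triangles for old 7, old 9 and young 9. The ratios of Mmrn2 to Eltd1 and to Robo4 and of Clec14a to Thbd do not overlap between the ages.

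Over the 12 samples, profiles were compared by the root mean square difference of log2 values centred on each gene's mean. Among the members Eltd1 and Robo4 were the closest pair, at 0.18, although Robo4 ranked only 189th among the genes nearest to Eltd1. The nearest genes to Clec14a were H2-Ke6 (0.113) and Ctsf (0.141), and to Mmrn2 Sec24d (0.102) and Lgals3bp (0.106). Those nearest to Cd93 were Hspe1 (0.162) and Mink1 (0.169), and to Eltd1 Eogt (0.089) and Erap1 (0.0934). Arfgap2 (0.0531) and L3mbtl2 (0.0708) were nearest to Egfl7, and Ddx54 (0.0718) and Eng (0.0721) to Robo4. Eng codes for endoglin, a TGF-beta co-receptor of endothelium.

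Among the 4 group 14 lectins, 1 rose (Clec14a) and 1 fell. Thbd, thrombomodulin, which binds thrombin and starts the protein C anticoagulant pathway, ran from 10453 to 16908 in old and from 21403 to 36005 in young samples. The ages did not overlap, and it fell by 0.94 on the log2 scale (14114 ± 2848 against 27040 ± 5394, limma adjusted p = 0.0021). Clec14a rose relative to Thbd by 1.45 on the log2 scale (exact permutation p = 0.00216, the smallest possible), a pair chosen after its values were seen. The same held for Mmrn2 (1.25), Egfl7 (1.15) and Robo4 (0.60) relative to Thbd, each with an exact permutation p of 0.00216. For Eltd1 relative to Thbd the difference was 0.62 (exact permutation p = 0.00433). Cd248, a pericyte and fibroblast gene, was at 80.6 ± 92.5 in old and 192 ± 136 in young samples (log2 fold -2.22, adjusted p = 0.175). Cd93 lies next to Thbd on chromosome 2 in RefSeq, and for Cd93 relative to Thbd the difference was 0.57 (exact permutation p = 0.139).

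Beside Mmrn2 on chromosome 14 in RefSeq lie Sncg and Bmpr1a, which were named after their values were seen. Sncg, gamma-synuclein, rose from 348 ± 85.0 to 1029 ± 334 normalized counts (log2 fold 1.54, limma adjusted p = 0.00065). Bmpr1a, a type 1 receptor for bone morphogenetic proteins, rose from 48.9 ± 37.6 to 178 ± 72.3 (2.24, adjusted p = 0.0197). Neither overlapped between the ages. No exon of Mmrn2 shares bases with another gene in GENCODE M21.

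**Figure D4:**
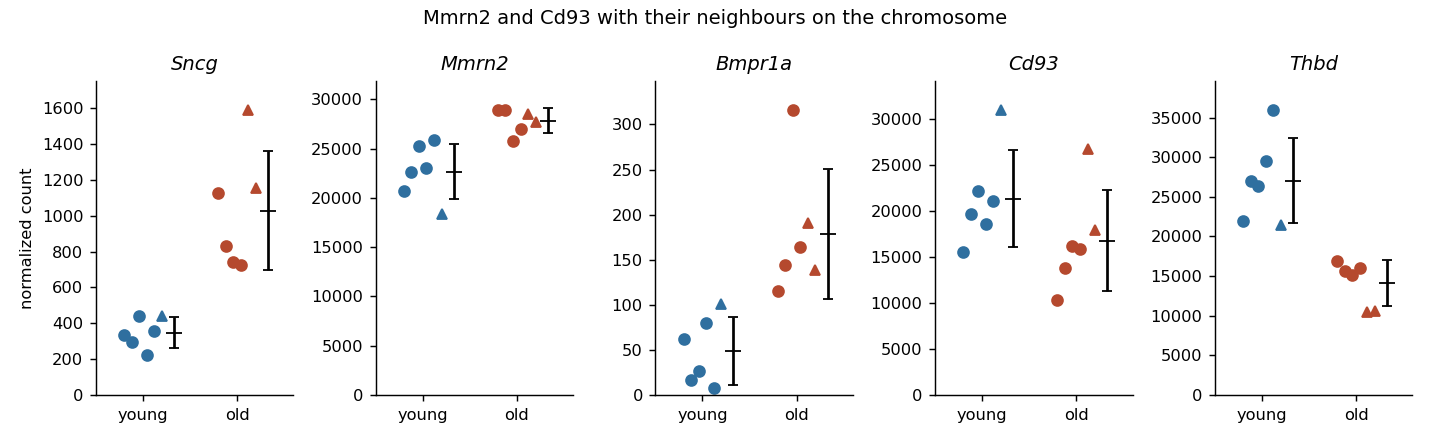
Normalized counts by sample of Mmrn2 and its neighbours Sncg and Bmpr1a, and of Cd93 and its neighbour Thbd. Nxt1, the other neighbour of Cd93, and the neighbours of the other members are not drawn. Black bars give mean and SD, and triangles mark old 7, old 9 and young 9. Sncg and Bmpr1a are higher and Thbd is lower in old samples with no overlap, while Mmrn2 and Cd93 overlap.

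The families of the other members are short lists, to be read beside all genes, of which 3.73% rose and 3.21% fell. Of 11 adhesion receptors 1 rose and 1 fell (18.2% called), with a median log2 fold of -0.32. Lphn3, a latrophilin, fell from 455 ± 85.2 to 112 ± 63.3 (log2 fold -2.18, limma adjusted p = 0.00065) with no overlap. Gpr133 rose from 12.4 ± 12.8 to 112 ± 69.5 (3.58, adjusted p = 0.0267), a call lost in 11 of 29 alternatives. Lphn2, a neighbour of Eltd1, was at 5403 ± 1935 against 8283 ± 1573 (-0.69, adjusted p = 0.0763). Gpr116, the most abundant of them in counts, was at 96463 ± 26334 against 109287 ± 17765 (-0.21, adjusted p = 0.508). The other 6, Gpr125 (-0.51), Cd97 (-0.33), Gpr124 (-0.15), Gpr126 (-1.36), Lphn1 (-0.07) and Gpr56 (0.05), did not pass in limma. Gpr125 passed in DESeq2 (adjusted p = 0.0353).

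Of 5 emilins and multimerins 3 were tested and 0 passed in limma or edgeR (1, Mmrn2, in DESeq2; unadjusted p under 0.05 in 1), with Mmrn1 at -0.32 and Emilin1 at 0.48. Of 8 EGF-like genes 0 passed in limma, edgeR or DESeq2, and 3 had an unadjusted p under 0.05. Egfl8 was at 2256 ± 644 against 1529 ± 632 (log2 fold 0.60, adjusted p = 0.157), Egfl6 at 2.91 (adjusted p = 0.0705), Celsr2 at 1.08, Megf10 at 1.77, Megf6 at -0.10 and Megf9 at -0.19 on the log2 scale.

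Of 9 tested genes of the Robo and Slit list 0 rose and 1 fell (11.1% called). Flrt2, a membrane protein that binds Unc5 receptors, fell by 0.79 on the log2 scale (1288 ± 351 against 2175 ± 309, adjusted p = 0.0090) without overlap. Unc5b, an endothelial receptor that binds Robo4, was at 2565 ± 433 against 2876 ± 555 (-0.16, adjusted p = 0.538). Srgap1 (-0.30), Srgap2 (-0.43), Srgap3 (0.46), Robo1 (1.53), Slit2 (-0.33) and Slit3 (0.10) did not pass. Of 14 genes of Robo4 signalling 0 passed in limma or edgeR and 1 in DESeq2, 4 had an unadjusted p under 0.05 and 11 lay below 0, with the smallest p for the small GTPase Arf6 (-0.31, adjusted p = 0.0824).

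Among 13 partners of the lectins and multimerin 2, 0 rose and 2 fell, where 3.73% of all genes rose and 3.21% fell. Of the partners 12 had a log2 fold below 0, as did 20 of 26 pan-endothelial markers and 17 of 22 endothelial transcription factors. The median log2 fold of all genes lay just below 0. Adam17, a protease that sheds membrane proteins, fell from 6221 ± 1028 to 3536 ± 418 (log2 fold -0.81, limma adjusted p = 0.00089). Itga5, the alpha chain of a fibronectin receptor, fell from 4018 ± 339 to 2857 ± 347 (-0.50, adjusted p = 0.0069). Neither overlapped between the ages. Kdr, the VEGF receptor 2, was at 38805 ± 13329 against 55787 ± 3293 (-0.59, adjusted p = 0.0674), and its ligand Vegfa at 261 ± 155 against 96.0 ± 72.4 (1.47, adjusted p = 0.0672). Vegfa is also made by astrocytes, and with the astrocyte score as a covariate its log2 fold was 0.20 (adjusted p = 0.89). The score shares information with age, and the part of astrocytes in this difference was not tested. Itgb1 (-0.28), Fn1 (-0.52), Igfbp7 (-0.16), Dag1 (-0.20), Flt4 (-0.33), Rhbdl2 (-1.24), Hspg2 (-0.19), Msn (-0.05) and Gipc1 (-0.03) did not pass in limma. In edgeR 2 of the 13 partners passed and in DESeq2 4, with Itgb1 (adjusted p = 0.0267) and Vegfa (adjusted p = 0.0257) among the latter.

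**Figure D5:**
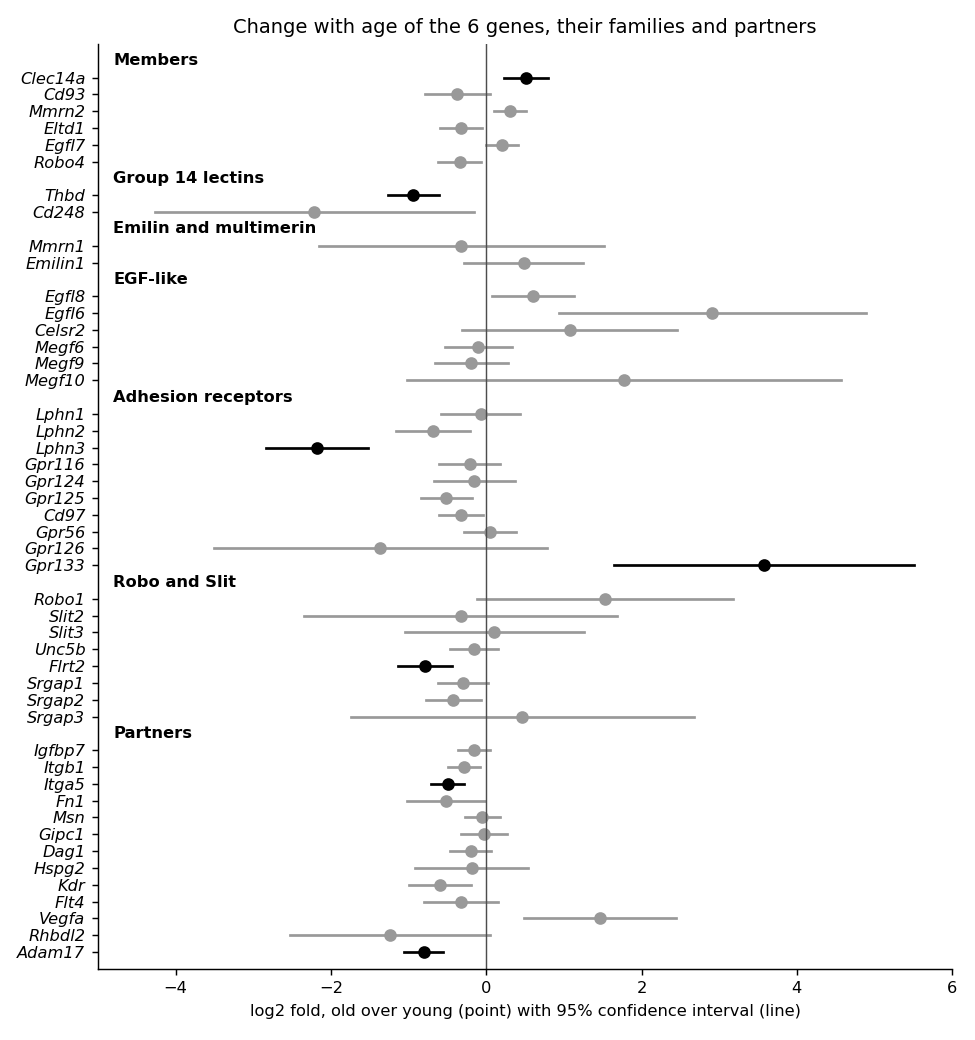
Log2 fold of old over young (horizontal axis) for the 6 genes, their families and partners, with 95% confidence intervals as lines, black where the adjusted p was under 0.05 and grey otherwise. Clec14a and Gpr133 lie above 0 in black, and Thbd, Lphn3, Flrt2, Itga5 and Adam17 below 0.

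For Egfl7, 14 genes of Notch signalling gave 1 risen (Hey2, named after its values were seen) and 2 fallen. Notch4, the endothelial Notch receptor, fell by 0.69 on the log2 scale (6784 ± 1725 against 10847 ± 2181, adjusted p = 0.0199) and its family's ligand Dll1 by 0.81 (309 ± 95.4 against 521 ± 41.0, adjusted p = 0.0199). Of 22 endothelial transcription factors 0 rose and 2 fell, Foxf2 by 0.38 and Etv6 by 0.46 on the log2 scale, with 17 below 0. The call on Etv6 was lost in edgeR (adjusted p = 0.0587) and in 17 of 29 alternatives in all, 8 of them with 1 sample left out, and that on Foxf2 in 11 of 29, 6 of them with 1 sample left out. Of 26 pan-endothelial markers 0 rose and 2 fell, the junction genes Cdh5 (-0.36) and Ocln (-0.33), with a median of -0.20. The call on Ocln was lost in 18 of 29 alternatives, 10 of them with 1 sample left out, and that on Cdh5 in 8 of 29, 3 of them with 1 sample left out. In the family, partner and pathway lists together, 91 tested genes that are not members gave 2 risen and 9 fallen (12.1% called). Of all genes 3.73% rose and 3.21% fell. The median log2 fold of the 91 genes was -0.18 beside -0.01 for all genes.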

How the data were processed

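RNA-seq of 12 sorted brain endothelial samples was used. The deposited table gives 1 signal per gene and sample, named normalized counts by the authors. Every column was a whole read count divided by 1 size factor: 100% of values came out whole within 0.001. Per the submitters' processing notes, the build was mm9 and the tools included R 3.2.2, Cuffdiff 2.2.1, STAR 2.4.2a and FastQC 0.11.2; the counting tool is not given in the sources used here. Sequences, lengths and GC content came from GRCm38 annotation, matched by symbol.

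After a filter on the mean (at least 10), log2(value + 1) was taken, and the ages were compared with limma 3.58.1 (R 4.3.3), age as the only term, a variance trend and Benjamini-Hochberg adjustment. Folds compare mean log2 values, and for low genes they were often larger than those of edgeR (Cd248 -2.22 against -1.25, Egfl6 2.91 against 1.94) and sometimes smaller (Rhbdl2 -1.24 against -1.30). On the recovered reads edgeR 4.0.16 called 761 genes, against 887 in limma; DESeq2 1.42.0 was also run. Scripts were tested on simulated data. Single values were compared with two-sided exact permutation tests. Samples of the same age all differed by more than sampling noise. Reads carry no molecular identifiers, so read totals convey counting error only.

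The members, 21 gene lists and tests were chosen with earlier results of these data known. Named genes were the members, every measured family and partner gene, up to 2 genes of each other list by p, and the 2 nearest profiles of each member; others are said to be chosen after their values were seen. Of the genes given by this rule, 1 is not reported here.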

Additional observations from a re-analysis of the deposited data

Results flagged for a closer look

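In 66 checks of a group of 6 samples, 7 values stood apart from the other samples of their age by more than Dixon's criterion; chance flags about 1 in 20 groups. Young 1 had the highest Egfl7 of the young samples, 14940 normalized counts beside a median of 10870 in the others. Its ratio of Eltd1 to Egfl7, 3.85, was the lowest of the young samples, whose other ratios had a median of 7.37. Young 9 had the highest young ratios of Cd93 to Mmrn2 (1.69), to Eltd1 (0.427) and to Robo4 (1.66), against medians of 0.815, 0.245 and 0.822. Young 9 also had the highest choroid and ependymal marker score of its age (4.14, median of the others 1.04). Young 3 had the lowest blood leukocyte score of the young samples (0.523, median 1.74).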

How the results depend on the processing

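Each member was refitted under 29 alternatives, and no member's fold changed sign. Clec14a passed in 19 of 29 (log2 fold 0.39 to 0.65), including TMM scaling, edgeR and DESeq2. It did not pass without the variance trend (0.51), with the astrocyte (0.45) or mural (0.52) score as a covariate or without the 3 samples with a GC trend (0.47). Mmrn2 passed under upper-quartile scaling (0.34), quantile normalization (0.44), centring on pan-endothelial genes (0.44), array weights (0.29), DESeq2 (0.30), the astrocyte covariate (0.48) and a term for the 3 samples (0.32). Cd93 passed with that term (-0.48). Eltd1 and Egfl7 passed in 0 of 29. Leaving out 1 sample, Clec14a ran from 0.43 to 0.60 and Robo4 from -0.42 to -0.27. The cause of these changes was not tested.

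The title numbers 1, 2, 3, 4 and 9 occur at both ages. Deviations of same-numbered samples correlated at 0.0983, -0.018, -0.16, -0.136 and -0.0445, and no sample correlated best with its own number, so they were not treated as pairs. With the number as a replicate block over 10 samples Clec14a gave 0.39 (adjusted p = 0.0444) and Cd93 -0.52 (adjusted p = 0.0206), 301 genes were higher in old, and 0 list genes rose.

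Of all genes 887 passed, against 1380 with array weights, 1407 in DESeq2, 228 with the astrocyte and 241 with the mural covariate, and 553 to 1225 with 1 sample left out. Higher genes numbered 765, 746, 142 and 163 in these 4 fits and 310 to 696 with 1 sample left out. Lower genes numbered 661 in DESeq2, 86 and 78 with the covariates, 216 centred on pan-endothelial genes, and 243 to 529 with 1 sample left out. List genes that rose, 2 in all, numbered 5 with array weights, 0 with the astrocyte covariate, 1 without a filter, without the trend, with the mural covariate or without the 3 samples, and 0 to 4 with 1 sample left out; those that fell numbered 2 and 3 with the covariates and 7 to 14 with 1 left out.

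Without the 3 samples the pair differences that lost their call were Clec14a against Cd93 (0.95), Clec14a against Eltd1 (0.75), Clec14a against Egfl7 (0.30), Clec14a against Robo4 (0.70), Cd93 against Mmrn2 (-0.72), Mmrn2 against Eltd1 (0.51), Mmrn2 against Robo4 (0.47), Eltd1 against Egfl7 (-0.45) and Egfl7 against Robo4 (0.40), and Eltd1 against Robo4 changed sign (-0.04). With 1 sample left out there are 462 labellings, and the differences ran as follows: Cd93 against Egfl7 (-0.74 to -0.42), Cd93 against Eltd1 (-0.25 to 0.08), Cd93 against Mmrn2 (-0.82 to -0.50), Cd93 against Robo4 (-0.25 to 0.13), Clec14a against Cd93 (0.72 to 1.05), Clec14a against Egfl7 (0.24 to 0.38), Clec14a against Eltd1 (0.69 to 1.00), Clec14a against Robo4 (0.73 to 0.96), Egfl7 against Robo4 (0.47 to 0.64), Eltd1 against Egfl7 (-0.69 to -0.45), Eltd1 against Robo4 (-0.06 to 0.05) and Mmrn2 against Egfl7 (0.00 to 0.16). Mmrn2 against Eltd1 and against Robo4 passed in 14 of 15 alternatives, and the other 7 called pairs in 5 or 6 of 15, with adjusted p from 0.051 to 0.0974 where 1 sample left out ended a call (exact permutation).

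Of 83 other named genes tested, 20 changed sign in at least 1 alternative. With array weights, the sign changed for Mmrn1 (0.29), Lphn1 (0.03), Gipc1 (0.03) and Hspg2 (0.01). In edgeR, the sign changed for Mmrn1 (0.07), Lphn1 (0.02) and Slit2 (0.50). In DESeq2, the sign changed for Mmrn1 (0.07), Lphn1 (0.01) and Slit2 (0.49). With the mural score as a covariate, the sign changed for Mmrn1 (0.10), Megf6 (0.02), Lphn1 (0.34), Slit2 (0.33), Slit3 (-0.22), Gipc1 (0.01), Hspg2 (0.15) and Agpat2 (0.06). Without the 3 samples with a GC trend, the sign changed for Mmrn1 (0.75), Megf6 (0.09), Lphn1 (0.12), Gpr116 (0.04), Gpr124 (0.08), Slit2 (0.52), Hspg2 (0.22) and Agpat2 (0.01). With the astrocyte score as a covariate, the sign changed for Celsr2 (-0.05), Megf6 (0.17), Megf9 (0.16), Megf10 (-1.25), Gpr126 (0.56), Unc5b (0.03), Srgap3 (-1.76), Msn (0.04), Gipc1 (0.10), Hspg2 (0.18), Hepacam (-0.05) and Agpat2 (0.11). Centred on pan-endothelial genes, the sign changed for Megf6 (0.04), Lphn1 (0.07), Msn (0.09), Gipc1 (0.11), Sec23a (0.05) and Agpat2 (0.13). With the replicate block, the sign changed for Megf6 (0.09), Gpr124 (0.11), Gipc1 (0.00), Hspg2 (0.02) and Agpat2 (0.09). With a term for those 3 samples, the sign changed for Megf6 (0.03), Gipc1 (0.01), Hspg2 (0.04) and Agpat2 (0.04). Under quantile normalization, the sign changed for Slit3 (-0.23) and Msn (0.11). Under upper-quartile scaling, the sign changed for Agpat2 (0.02). With 1 sample left out the sign changed for Mmrn1 (-0.68 to 0.46), Megf6 (-0.24 to 0.02), Lphn1 (-0.24 to 0.08), Gpr56 (-0.02 to 0.15), Slit2 (-0.92 to 0.19), Slit3 (-0.26 to 0.56), Msn (-0.09 to 0.01), Gipc1 (-0.11 to 0.03), Hspg2 (-0.37 to 0.11) and Agpat2 (-0.08 to 0.09). The microglia and macrophage score changed sign at a pseudocount of 8 (0.07). Settings for marker scores and for principal transcript lengths (per kilobase, Egfl7 8962 and Robo4 6322) were chosen after seeing the data. Low values, as for Mmrn1 and Slit2, limit what can be seen of those genes.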
